A study of Bos taurus with 16 samples.

Results

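IGFN1 (NCBI gene 107131191), the gene for immunoglobulin-like and fibronectin type III domain containing protein 1, was followed through round and sirloin muscle of newborn Hanwoo calves as 1 of 34109 genes listed. The gene was chosen on these same data for its higher level in sirloin than in round muscle, so its difference between the muscles is given as a description, without a test. The differences between maternal diets, and the relation of IGFN1 to the fibre-type genes within a muscle, were not used in that choice and were tested. A further relation, of the sirloin minus round differences, was also tested and rests on values used in the choice.

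IGFN1 is a protein of striated muscle built from repeated immunoglobulin and fibronectin domains, the fold also found in titin, the myomesins and the myosin-binding proteins C. It is located at the Z-disc, the plate that anchors the thin filaments of neighbouring sarcomeres, where it is known to bind KY, a protein needed for muscle maintenance, and filamin C, an actin cross-linker encoded by FLNC. Muscle fibres differ in the myosin heavy chain they carry. MYH7 encodes the slow form, MYH2, MYH1 and MYH4 the fast forms of type IIa, IIx and IIb fibres, and MYH3 and MYH8 the embryonic and neonatal forms that are replaced as muscle matures.

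The 16 libraries came from 8 male calves of the Hanwoo breed. Round muscle (hind leg) and sirloin muscle were taken from each calf straight after birth. In mid to late pregnancy the mothers of 4 control calves had a diet given as 100% (standard nutrition). Those of 4 treated calves had one given as 150% (overnutrition). Calves are numbered 1 to 4 within each diet as the labels do, and the same number in both muscles was taken as the same calf, since the deviations of a calf's round library from its group mean correlated best with those of its own sirloin library in 8 of 8 calves. Whole pieces of muscle were sequenced, to between 44473011 and 72446933 counted reads a library, so a lower level can come from fewer cells of a type or from less RNA per cell, and these cannot be told apart. Each library carried the skeletal muscle genes ACTA1, CKM, MB and DES at a summed level of 38487 to 73666 transcripts per 1000000 (TPM). TBX4 and HOXC11, transcription factors of the hind limb, were above 0 in 8 of 8 round libraries (0.111 to 1.39 TPM and 1.69 to 3.44 TPM) and at 0 in 8 of 8 sirloin libraries. The other hind limb markers looked at overlapped between the muscles, with PITX1 at 1.33 to 41.7 TPM in round and 2.09 to 23.6 TPM in sirloin, and HOXC10 at 11.9 to 34.2 TPM and 2.36 to 37.9 TPM.

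A pair of libraries stood apart from the rest. The round library of treated calf 2 held MYH7 at 11858 TPM, or 69.9% of the summed TPM of the 4 adult myosin heavy chain genes, where the other round libraries held 8.15% to 39.5%. The sirloin library of treated calf 4 held the adipocyte markers ADIPOQ, PLIN1, FABP4 and LEP at a summed 3678 TPM, against 0.730 to 14.4 TPM in the other libraries. Results that changed most when either library was left out are given below both ways.

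IGFN1 was among the abundant transcripts of the sirloin and a minor transcript of the round. Its level in the control sirloin libraries was 268, 624, 508 and 350 TPM in calves 1 to 4, and in the treated sirloin libraries 193, 392, 159 and 112 TPM. In the control round libraries it was 12.9, 35.5, 31.6 and 26.0 TPM, and in the treated round libraries 20.7, 0.442, 4.08 and 13.1 TPM. The lowest sirloin library lay 3.16 times above the highest round library in TPM, so the muscles did not overlap. By TPM, IGFN1 ranked between place 196 and place 838 of the listed genes in the sirloin libraries and between place 2336 and place 13632 in the round libraries. The reads behind these values numbered 48382 to 309098 a library in sirloin and 131 to 17185 in round, and the 131 reads belonged to treated calf 2.

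Comparisons between libraries were made in counts per 1000000 reads (CPM), which corrects for the depth of a library and not for the length of a gene. In order of the group means, IGFN1 stood at 3030 ± 1010 CPM in control sirloin, 1310 ± 709 CPM in treated sirloin, 189 ± 60.6 CPM in control round and 66.1 ± 63.2 CPM in treated round (SD, n = 4 each). The gap between the lower sirloin group and the higher round group was larger than the SD of any group. The control and treated groups of a muscle, the neighbours in this order, did not pass the tests of diet given below.

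**Figure D1:**
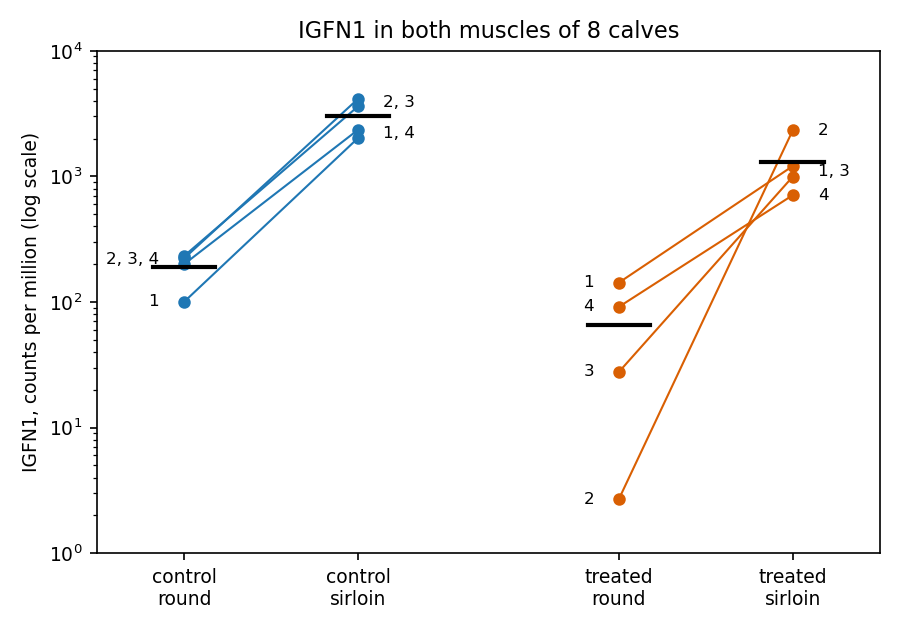
IGFN1 in CPM, on a log axis, with each point a library, each line joining the round and sirloin libraries of a calf, numbers naming the calf within its diet and black bars the mean of 4 libraries. Sirloin lies above round in each calf, and the round library of treated calf 2 is lowest, at 2.70 CPM.

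Within each calf the sirloin held more IGFN1 than the round, in 8 of 8 calves. The sirloin to round ratio of CPM was 20.1, 18.6, 15.5 and 11.7 in control calves 1 to 4. It was 8.48, 864, 35.9 and 7.75 in treated calves 1 to 4. The control calves were close to each other, whereas the treated calves ranged widely. On the log2 scale the within-calf difference averaged 4.01 ± 0.35 in control calves and 5.23 ± 3.17 in treated calves (SD, n = 4 each), and 4.62 ± 2.19 over all calves (n = 8). Without treated calf 2 the mean over calves was 3.89 ± 0.77 (n = 7).

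The size of this difference can be read against the other genes. Of 12315 genes with a mean of at least 1 CPM, 13 had a larger estimated excess in sirloin than IGFN1, whose edgeR estimate was 4.16 on the log2 scale. Of 7337 genes with a mean of at least 10 CPM there were 3, namely UCP1, ADIPOQ and TRARG1, genes known from fat cells. In the sirloin of treated calf 4, UCP1 was at 1098 TPM and ADIPOQ at 678 TPM, and in the other sirloin libraries UCP1 did not pass 2.65 TPM and ADIPOQ did not pass 0.549 TPM. Among the 1307 genes with a mean of at least 100 CPM, no gene had a larger sirloin excess than IGFN1. At an edgeR adjusted p under 0.05, 8 genes (0.035% of 22877 tested) were higher in sirloin and 6 (0.0262%) were lower, and since IGFN1 was chosen on this contrast nothing is read from its place among the 8.

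The treated calves had lower IGFN1 means than the control calves in both muscles, and in neither did the difference pass the test across all genes. In round muscle, treated calves 1 to 4 had 143, 2.70, 27.7 and 91.4 CPM, and control calves had 100, 223, 232 and 200 CPM. The groups overlapped, because treated calf 1 lay above control calf 1. The edgeR log2 difference, treated over control, was -1.48 (SE 0.79, adjusted p = 0.864 by Benjamini-Hochberg), with an unadjusted p of 0.0867 in the same edgeR fit. Of all genes tested in round muscle, 4 of 21677 (0.0185%) passed this threshold, and IGFN1 was not among them. Without treated calf 2 the estimate was -1.10 (SE 0.49, edgeR adjusted p = 0.930), and the treated mean was 87.2 ± 57.5 CPM (SD, n = 3).

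In sirloin muscle, treated calves 1 to 4 had 1208, 2329, 995 and 709 CPM, and control calves had 2019, 4143, 3608 and 2349 CPM. Again 1 pair overlapped, with treated calf 2 above control calf 1. The log2 difference was -1.21 (SE 0.38, edgeR adjusted p = 0.876), with an unadjusted edgeR p of 0.00834. In sirloin, 2 of 21776 genes tested (0.00918%) passed the threshold, while 852 genes had an unadjusted p under 0.05. Without treated calf 4, the library rich in adipocyte markers, the estimate was -1.0 (SE 0.36, edgeR adjusted p = 0.955).

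For IGFN1 alone, the exact two-sided permutation test over calves gave p = 0.0571 in round muscle and p = 0.0571 in sirloin muscle, where the smallest p that 4 calves against 4 allow is 0.0286. The log2 CPM differences behind these tests were -2.51 in round and -1.29 in sirloin. The round value was farther from 0 than the edgeR estimate, and it contains treated calf 2 at 1.45 on the log2 CPM scale, where the control mean was 7.49.

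Whether the diet difference itself differed between the muscles was tested with an interaction. The estimate for IGFN1 was 0.31 on the log2 scale (SE 0.97, edgeR adjusted p = 1.00), and with the calf as a block it was 0.74 (SE 1.15, edgeR adjusted p = 1). The exact permutation test on the within-calf differences gave a treated minus control difference of 1.22 and p = 0.686. Without treated calf 2 the edgeR estimate changed sign, to -0.53 (SE 0.62). Across all genes, 0 of 22877 (0%) passed edgeR's test of this interaction, with 637 at an unadjusted p under 0.05. DESeq2 and limma-voom also called 0 genes, with 290 and 387 at an unadjusted p under 0.05, and the edgeR fit with the calf block called 1.

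IGFN1 was among the most variable genes of the round muscle. Its SD of log2 CPM within diet groups was 1.85 in round, larger than that of 98.9% of the 12304 genes with a mean of at least 1 CPM there, whose median was 0.44. Without treated calf 2 it was 0.89, larger than 89.7% of those genes. In sirloin the SD was 0.62, larger than 77.2% of 12245 genes. The round library of treated calf 2 thus carried much of the spread, and IGFN1 remained above the median gene without it.

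The fibre-type genes did not separate the muscles the way IGFN1 did. In control calves 1 to 4 the MYH7 share of the adult myosin heavy chains was 8.15%, 21.1%, 20.7% and 22.4% in round and 18.6%, 26.0%, 20.9% and 18.8% in sirloin. In treated calves 1 to 4 it was 16.4%, 69.9%, 39.5% and 12.6% in round and 22.3%, 19.1%, 28.8% and 11.8% in sirloin. The muscles overlapped, and the share was higher in sirloin in 4 of 8 calves. The share did not pass the exact permutation test between diets in round (treated minus control 16.5 percentage points, p = 0.343) or in sirloin (-0.57 percentage points, p = 0.971).

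**Figure D2:**
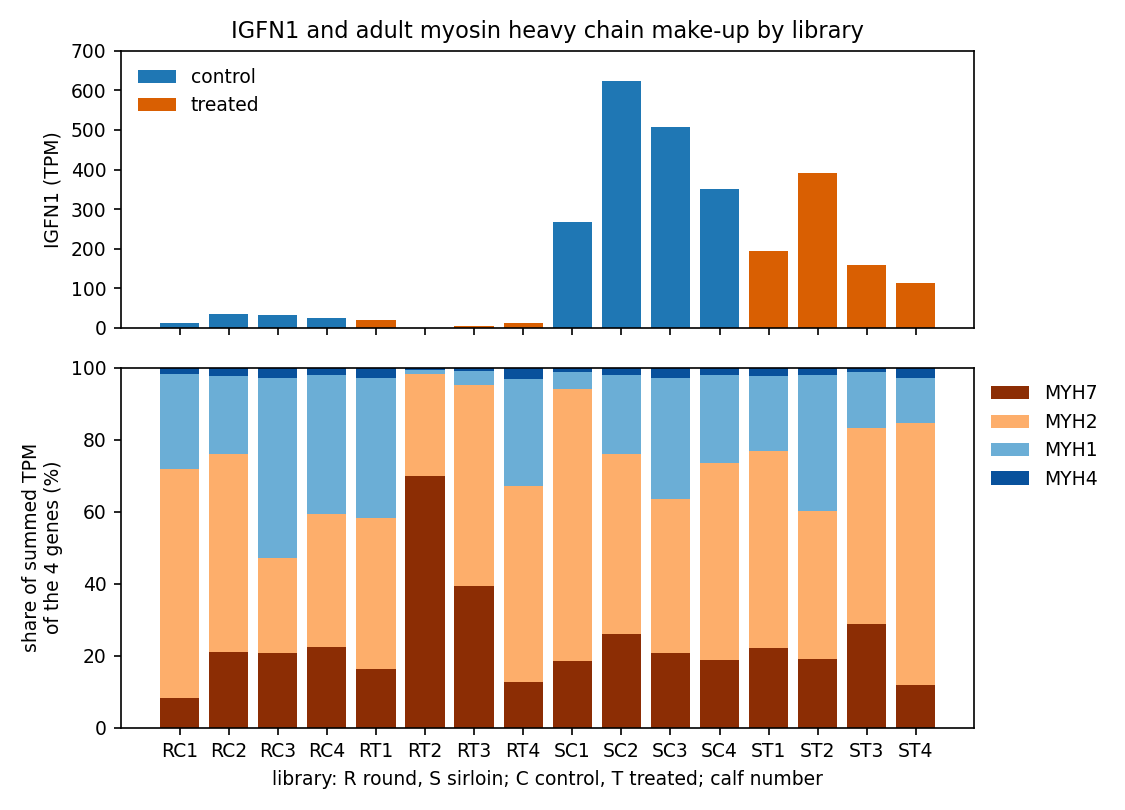
Top, IGFN1 in TPM in each of the 16 libraries, coloured by diet. Bottom, the share of MYH7 (slow), MYH2, MYH1 and MYH4 (fast) in their summed TPM. The sirloin libraries hold 112 to 624 TPM of IGFN1 with MYH7 shares of 11.8% to 28.8%, and the round libraries of treated calves 2 and 3 hold the highest MYH7 shares and the least IGFN1.

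In round muscle the libraries with the most slow myosin had the least IGFN1. Treated calf 2, with 69.9% MYH7, had 2.70 CPM of IGFN1, and treated calf 3, with 39.5% MYH7, had 27.7 CPM. The IIx myosin MYH1 was lowest in the same libraries, at 223 and 374 TPM against 2973 to 6961 TPM in the other 6. Over the 8 round libraries, log2 CPM of IGFN1 and the MYH7 share had a Pearson r of -0.895 (exact permutation p = 0.0177, adjusted p = 0.0627 over the 4 relations tested) and a Spearman rho of -0.286 (exact permutation p = 0.501). Without the 2 calves farthest from the median share, treated calves 2 and 3, r was 0.922 over 6 calves (exact permutation p = 0.0167, adjusted p = 0.0667). The sign turned, so the inverse relation rested on those calves, and without treated calf 2 alone r was -0.508.

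In sirloin muscle the libraries covered a narrower range of MYH7 share, 11.8% to 28.8%. Pearson's r between IGFN1 and the MYH7 share was 0.277 (exact permutation p = 0.515) and rho was 0.238 (exact permutation p = 0.582), with r = 0.372 over 6 calves without the 2 farthest. The low-MYH1 sirloin library, control calf 1 with 760 TPM, had 2019 CPM of IGFN1, the lowest of the control sirloin libraries. Without treated calf 4, which had the lowest MYH7 share and the least IGFN1 in sirloin, r was -0.295.

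The sirloin minus round difference of IGFN1 had r = -0.926 with the difference in MYH7 share (exact permutation p = 0.0314, adjusted p = 0.0627) and rho = -0.357 (exact permutation p = 0.389). IGFN1 was chosen on the size of these differences. Without the 2 farthest calves r was -0.607, and without treated calf 2 alone it was -0.315. IGFN1 in round and IGFN1 in sirloin had r = 0.195 (exact permutation p = 0.677) and rho = 0.690 (exact permutation p = 0.0694) over the 8 calves, and r = 0.827 without the 2 calves farthest from the median. Leaving out treated calf 2 alone, r was 0.719 (exact permutation p = 0.0514, adjusted p = 0.206) and rho was 0.893 (exact permutation p = 0.0123, adjusted p = 0.0492). With the diet means removed, r was -0.554. Over the 8 calves none of the 4 relations passed 0.05 after adjustment. With the diet means removed, the pair that used the round MYH7 share came to an adjusted permutation p of 0.0176 each by Pearson's r. By Spearman's rho the adjusted permutation p was 0.183 in round and 0.202 for the differences. These permutations shuffled calves across the diets after the means were removed, so their p-values are not exact.

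**Figure D3:**
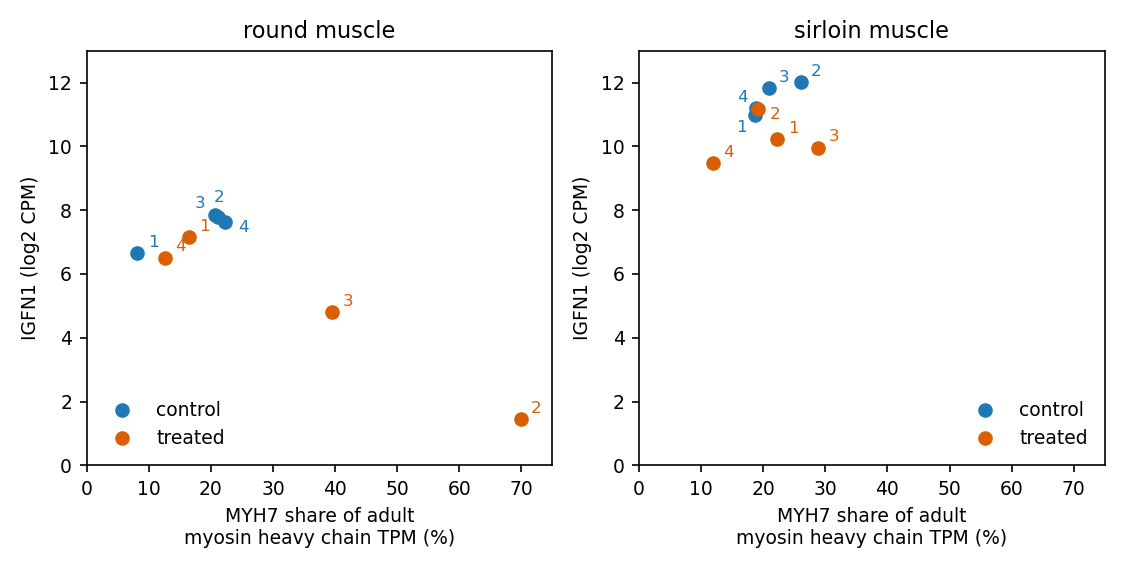
IGFN1 in log2 CPM against the MYH7 share of the adult myosin heavy chain genes in percent, for the 8 round libraries (left) and the 8 sirloin libraries (right), coloured by diet and numbered by calf. In round, treated calves 2 and 3 lie far to the right with the least IGFN1, and the other 6 calves lie between 8.15% and 22.4%.

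The partners of IGFN1 at the Z-disc did not share its sirloin level. KY was at 22.8 ± 31.5 TPM in round and 18.1 ± 38.6 TPM in sirloin (SD, n = 8), with a log2 difference, sirloin over round, of -0.64 (SE 0.97, edgeR adjusted p = 1.00). With the calf as a block it was -1.79 (SE 0.41, edgeR adjusted p = 0.0818), and KY was lower in sirloin in 7 of 8 calves. Without treated calf 4 the block fit gave -1.44 (SE 0.31, edgeR adjusted p = 0.0469), which passed the threshold. KY was uneven between calves. Control calf 2 had 95.9 TPM in round and 112 TPM in sirloin, and treated calf 1 had 38.1 and 23.7 TPM, while the other calves did not pass 11.9 TPM in either muscle. FLNC was at 1792 ± 1091 TPM in round and 822 ± 555 TPM in sirloin (n = 8), with a log2 difference of -1.09 (SE 0.35, edgeR adjusted p = 0.642, and 0.172 with the calf block), and it was higher in sirloin in 1 of 8 calves.

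The list of Z-disc genes as a whole had more members with lower than higher estimates in sirloin. Of 24 tested, 4 had a higher and 20 a lower estimate, with a median log2 difference of -0.27 beside -0.0042 over all genes tested, and none passed edgeR's adjusted threshold, with 4 at an unadjusted p under 0.05 beside 1447 of all 22877 genes. With the calf as a block 11 of the 24 had an unadjusted p under 0.05, beside 2555 of all genes, and 1 passed the adjusted threshold, beside 109 (0.476%) of all genes. That gene was MYOZ3, which encodes a calsarcin that ties calcineurin to the Z-disc. It was lower in sirloin in 8 of 8 calves (28.6 ± 28.7 TPM in round, 17.5 ± 14.8 TPM in sirloin, edgeR adjusted p = 0.0268 with the calf block and 0.893 without it). Without treated calf 4 the block fit called 2 of the 24, MYOZ3 and KY, beside 322 of 22567 genes.

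The list drawn up for sarcomere genes with immunoglobulin and fibronectin domains had 7 higher and 4 lower estimates in sirloin out of 11 tested. The median was 0.12 and none passed the adjusted threshold. These counts were 8 and 3, with a median of 0.26, without treated calf 2. The list is not the whole family, since MYBPC2 and MYBPH were placed in other lists. It also holds MYLK2, the skeletal muscle myosin light chain kinase, which lacks these domains. MYLK2 was at 207 ± 57.9 TPM in round and 329 ± 90.9 TPM in sirloin. Its log2 difference was 0.60 (SE 0.18, edgeR adjusted p = 0.565, and 0.136 with the calf block). TTN, the titin gene, was at 245 ± 77.2 TPM in round and 274 ± 59.6 TPM in sirloin, with a log2 difference of 0.11 (SE 0.19, edgeR adjusted p = 1.00). No other gene of this list had an estimate above that of MYLK2. MYBPC3, the heart form of myosin-binding protein C, had no count in any library.

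The genes of slow fibres had 4 higher and 8 lower estimates in sirloin out of 12 tested (median -0.17), which became 9 higher and 3 lower (median 0.19) without treated calf 2. Those of fast fibres had 9 higher and 5 lower out of 14 (median 0.02), which became 2 higher and 12 lower (median -0.10) without that calf, so the balance of both lists depended on it. MYL3, a slow myosin light chain, was at 2156 ± 638 TPM in round and 1039 ± 435 TPM in sirloin, and lower in sirloin in 7 of 8 calves. Its log2 difference of -1.16 (SE 0.27) had an edgeR adjusted p of 0.214, and of 0.0796 with the calf block. DESeq2 called it among 84 genes (0.367%). The developmental genes had 5 higher and 3 lower estimates out of 8 (median 0.07), with MYH3 at 42.2 ± 19.9 TPM in round and 49.1 ± 15.4 TPM in sirloin and MYH8 at 113 ± 39.1 and 139 ± 22.4 TPM.

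PVALB, the calcium buffer parvalbumin of fast fibres, had the highest estimate on these lists, 6.47 (SE 1.86, edgeR adjusted p = 0.568), and passed with the calf block (edgeR adjusted p = 0.0357). Its level was 51.0 TPM in the sirloin of treated calf 4 and at most 0.497 TPM in any other library. Without treated calf 4 the block fit gave an edgeR adjusted p of 0.457. IGFN1, in contrast, was lowest among the sirloin libraries in that calf.

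**Figure D4:**
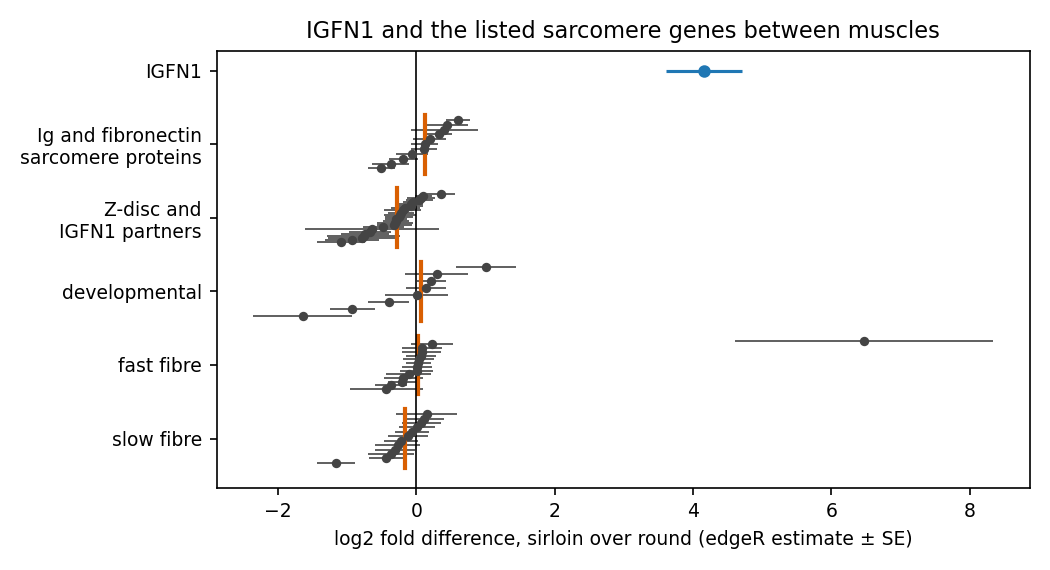
Log2 fold difference of sirloin over round muscle by edgeR, with its standard error, for IGFN1 (blue) and for each tested gene of 5 lists (grey), with the median of a list in orange. IGFN1, chosen on this contrast, is at 4.16, the list medians lie between -0.27 and 0.12, and the fast-fibre gene at 6.47 is PVALB.

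Between the diets no gene of these lists passed edgeR's adjusted threshold in either muscle. In sirloin, the Z-disc genes had lower estimates in treated calves in 24 of 24 (median log2 difference -0.52, 5 at an unadjusted p under 0.05), beside a median of 0.03 and 852 such genes over all 21776 tested, and in 23 of 24 (median -0.45) without treated calf 4. The other adult sarcomere lists also leaned to lower estimates in treated sirloin. Lower were 13 of 14 fast-fibre genes (median -0.30) and 9 of 11 genes of the immunoglobulin and fibronectin list (median -0.34). So were 9 of 12 slow-fibre genes (median -0.22). Without treated calf 4 these were 13 of 14 (median -0.33), 9 of 11 (median -0.25) and 8 of 12 (median -0.09). In round, the Z-disc list had 16 of 24 lower (median -0.16), and 17 of 24 (median -0.28) without treated calf 2. The slow-fibre genes had higher estimates in treated round muscle in 11 of 12 (median 0.62, 4 at an unadjusted p under 0.05), beside a median of 0.02 and 956 such genes over all 21677 tested, and in 8 of 12 (median 0.15, 0 at an unadjusted p under 0.05 by edgeR) without treated calf 2.

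The genes whose pattern was most like that of IGFN1 were sought by Pearson's r of log2 CPM over the 16 libraries, which share 8 calves and are therefore not independent, among 11393 named genes with a mean of at least 1 CPM. The group means were kept here, so r takes in the difference between muscles on which IGFN1 was chosen. A high r can therefore restate that choice. The median r was 0.01, with 5% of genes below -0.394 and 5% above 0.427. Of the 10 most like, 9 are given here, HOXD9 (r = 0.866), WDR86 (0.860), HOXD8 (0.851), SHISA3 (0.846), RHOT1 (0.833), KMT5A (0.811), HOXC8 (0.808), KCNA7 (0.785) and ADGRB1 (0.783). HOXD8, HOXD9 and HOXC8 are homeobox genes of body position. The 5 most unlike were ALDH1A2 (-0.805), VPS36, CLTRN, LDAF1 and WARS1 (-0.757), where ALDH1A2 makes retinoic acid.

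These genes differed in how they followed IGFN1. HOXD8 was at 60.0 ± 13.1 TPM in sirloin and at 27.5 to 46.5 TPM in 7 round libraries, and at 6.54 TPM in the round library of treated calf 2, where IGFN1 was also lowest. HOXD9 was at 9.17 to 20.3 TPM in sirloin, and its lowest value, 0.784 TPM, was in the same round library. WDR86 was at 3.22 to 17.1 TPM in sirloin and 0.587 to 2.09 TPM in round, and in treated calf 2 its round level of 1.37 TPM was within the round range. With that calf left out, r was 0.772 for HOXD9, 0.796 for HOXD8 and 0.962 for WDR86, and 3 of the 10 genes kept a place among the 10 most like.

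**Figure D5:**
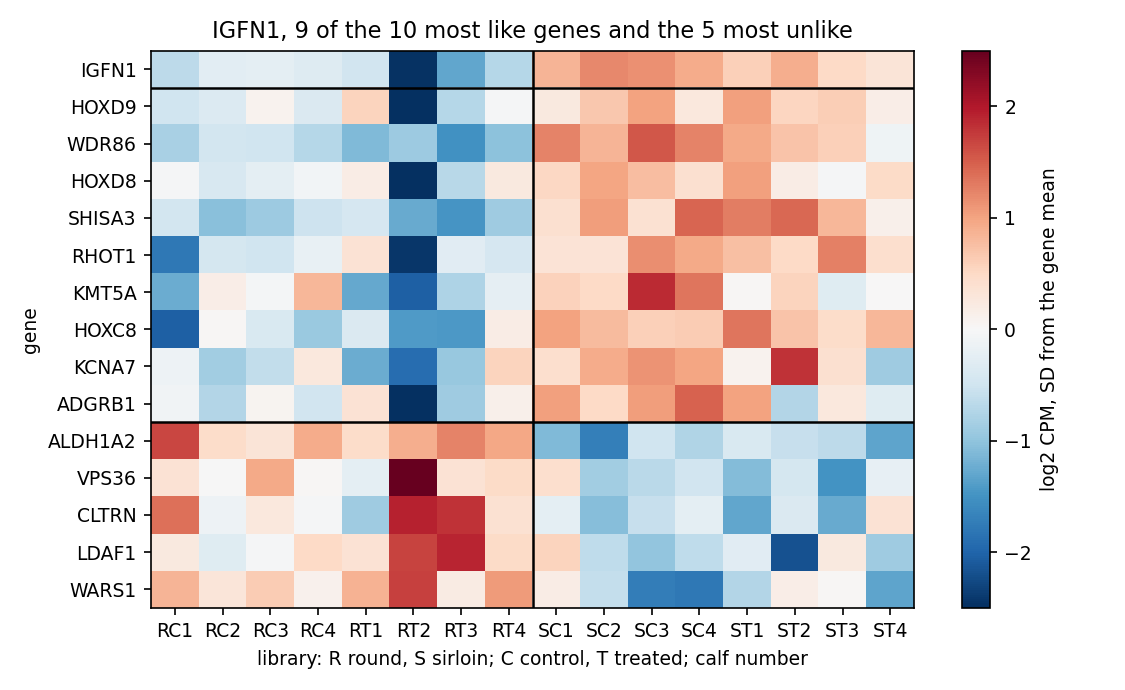
Log2 CPM of IGFN1, 9 of the 10 genes most like it and the 5 most unlike it, as standard deviations from the mean of each gene over 16 libraries (red above, blue below). The sirloin libraries to the right of the line are mostly red for IGFN1 and the most like genes, and the round library of treated calf 2 (RT2) is the lowest of the 16 for IGFN1, HOXD9, HOXD8, RHOT1, KMT5A, KCNA7 and ADGRB1.

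With the group means removed, so that muscle and diet no longer contribute, the most like genes were PSMA1 (r = 0.945), HOXD9 (0.940), DPH7, NAA10, MYBPH (0.886), EIF5A, EMG1, HOXD8 (0.867), HDGF and BRMS1. Of these 10 genes, 1 kept a place among the most like without treated calf 2, and 3 did so by Spearman's rho. MYBPH encodes myosin-binding protein H, a sarcomere protein with the same domain types as IGFN1. It was at 246 to 916 TPM in 7 round libraries and at 18.4 TPM in treated calf 2. The most unlike included ATP2A2, the calcium pump of slow fibres (r = -0.890), and MYBPC1, the slow myosin-binding protein C (r = -0.851), which were at 3467 and 4613 TPM in that library, their highest of the 16.

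On this measure 5% of the named genes had an r below -0.512 and 5% above 0.546. All 12 slow-fibre genes had a negative r with IGFN1 (median -0.671), and 11 of 14 fast-fibre genes a positive one (median 0.609), with MYH1 at 0.844 and MYH7 at -0.616. Without treated calf 2 the medians were -0.239 and 0.172, with 9 of 12 slow-fibre genes negative and 10 of 14 fast-fibre genes positive. With the group means kept, the slow-fibre median was -0.380 (12 of 12 negative) and turned to 0.148 (9 of 12 positive) without that calf, and the fast-fibre median was 0.381 and 0.104. With them removed, MYH1 was at 0.798 and MYBPH at 0.631, while MYH7 was at 0.08, all without that calf. KY had an r of 0.384 with IGFN1 on this measure, and of 0.699 without that calf, and FLNC had -0.05 and -0.03.

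The genes beside IGFN1 on its chromosome did not follow it. In the order of a newer cattle annotation, which was used for order alone, the named genes CACNA1S, ASCL5 and TMEM9 precede it and PKP1, MGAT4F and CYB5R1 follow it. CACNA1S, the voltage sensor of excitation-contraction coupling, was at 177 ± 46.3 TPM in round and 227 ± 44.0 TPM in sirloin, a log2 difference of 0.29 (SE 0.18, edgeR adjusted p = 0.897). TMEM9 and CYB5R1 had log2 differences of 0.01 and 0.23, and the other neighbours did not pass 0.579 TPM in any library. None of the 6 neighbours passed the adjusted threshold.

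Markers of other cell types were also summed. The fibroblast genes COL1A1, COL3A1, PDGFRA and DCN summed to 232 to 1431 TPM in round and 145 to 592 TPM in sirloin. Of the heart genes MYH6, NPPA and TNNI3, NPPA was at 0 in all 16 libraries. The summed level of the 3 was 65.6 to 563 TPM in round, highest in treated calf 2, and 73.5 to 312 TPM in sirloin. The part of these markers in the level of IGFN1 was not tested. The sirloin to round ratio of IGFN1 was 7.75 in treated calf 4, whose sirloin held the adipocyte markers, and 8.48 to 864 in the calves whose sirloin held at most 4.72 TPM of them.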

How the data were processed

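Round and sirloin muscle of 8 calves gave 16 RNA sequencing libraries. The authors deposited read counts per gene and TPM values. The labels name poly(A) selection, STAR, featureCounts and the build ARS-UCD1.2, and the methods of the study name ribosomal depletion, HISAT2 and StringTie, so the preparation and the counter of the deposited counts are uncertain. Deposited columns of fold changes and p-values were not used. Symbols came from RefSeq and matched 30762 of 34109 gene IDs.

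Genes with a count in any library were tested with edgeR 4.0.16 (quasi-likelihood, TMM factors, Benjamini-Hochberg adjustment, threshold 0.05) in R 4.3.3, by diet within a muscle (8 libraries) and by 4 group means for muscle and interaction (16 libraries). DESeq2 1.42.0, limma 3.58.1 and a calf block were alternatives. Log2 CPM used a prior count of 2. Single values and relations were tested with exact permutations (Python 3.11.15), and figures used matplotlib.

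The pairing of muscles came from the replicate numbers in the labels, and own-calf r of group-mean deviations was 0.311 to 0.765, against at most 0.456 with another calf. Between diets the same number gave r of -0.280 to 0.290 and pairs nothing. Nothing says that the libraries were prepared apart. The p-values of diet within a muscle measure the spread between these calves. The main edgeR fits between muscles and of the interaction took the 16 libraries as independent. Of the edgeR fits over both muscles, only those with the calf block used the pairing. The edgeR scripts were first tested on simulated counts. Of 200 genes given a log2 change of 2, they recovered 62.5% for diet in round and 62% in sirloin. Between muscles they recovered 80%, and for the interaction 33%. False calls numbered 16, 17, 12 and 5 in that order. With no gene changed they numbered 0, 2, 0 and 0. The simulated libraries were drawn without a calf effect, so the pairing of muscles was not covered.

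The gene and the lists were chosen with earlier results of these data known. Named genes are IGFN1, list members, the 10 most like and 5 most unlike genes, and 3 neighbours on each side. List members FHL1 and MYLPF had no match. Other genes were named after their values were seen. A gene among the most like is not reported here.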

Additional observations from a re-analysis of the deposited data

Results flagged for a closer look

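A library far from the others of its group was looked for among 48 groups of 4 values, with Dixon's criterion, by which chance alone marks about 1 in 20 groups. IGFN1 itself had no such library in any group, neither in TPM nor on the log2 CPM scale. KY, the Z-disc partner of IGFN1, had a far highest library in 3 groups, at 95.9 TPM in control round, at 112 TPM in control sirloin and at 23.7 TPM in treated sirloin. The control values both belonged to control calf 2, and the treated value to treated calf 1. Control calf 2 also held the most IGFN1 of the sirloin libraries, 624 TPM.

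In control round, the MYH7 share of 8.15% in calf 1 was far below the other libraries, and that calf held the least IGFN1 of the control round libraries, 12.9 TPM. In control sirloin, MYH3, the embryonic myosin heavy chain, was far highest in calf 1, at 66.6 TPM, and that calf held the least IGFN1 of its group, 268 TPM. The cause of these values was not tested.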

How the results depend on the processing

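In both muscles the diet estimate for IGFN1 kept its direction and stayed short of the threshold under 15 alternatives each. With a replicate block on the diet numbers it was -2.29 in round and -1.29 in sirloin, and with limma-voom -2.48 and -1.30, with 1.2 for the interaction. Leaving out 1 calf gave -2.20 to -1.10 in round and -1.64 to -1.0 in sirloin. The interaction ranged from -0.53 to 1.04 when 1 calf was left out, turning negative without treated calf 2. The muscle difference ranged from 3.89 to 4.86.

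The calf block called 1 fast-fibre and 1 Z-disc gene and DESeq2 called 1 slow-fibre gene, where the main test called 0. Genes called between muscles numbered 14, with 109 under the calf block, 84 under DESeq2 and 21 under limma-voom. Between diets DESeq2 called 45 genes in round and 13 in sirloin against 4 and 2, and limma-voom 1 and 0.

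Of the relations, IGFN1 against MYH7 share in round was 0.922 without the 2 farthest calves, -0.880 with diet means removed and -0.936 to -0.508 when 1 calf was left out. In sirloin it was -0.295 to 0.750. The relation of the differences was -0.933 with diet means removed and -0.964 to -0.315 when 1 calf was left out. IGFN1 between muscles was -0.554 with diet means removed and 0.05 to 0.719 when 1 calf was left out. Without control calf 1 the pair of relations with the round MYH7 share came to an adjusted exact permutation p of 0.0456 each.

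Of the 10 most like genes, 4 were shared with Spearman's rho, 6 with a minimum mean of 10 CPM, and 3 without treated calf 2. With group means removed these were 3 with Spearman's rho, 5 with log2(TPM + 1) and 1 without treated calf 2. The alternatives without treated calf 2 or 4 for likeness, spread and lists were chosen after seeing the data. With 4 calves a diet, an exact permutation p cannot go below 0.0286. The fewest IGFN1 reads were 131, in the round library of treated calf 2, which had 46788017 counted reads. The part of depth was not tested.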
